A study of Mus musculus with 8 samples.

Results

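Tendon progenitors of the embryonic mouse forelimb were chosen by measured UMIs, as the sorted cells that carried at least 2 UMIs of *Scx* and at least 1 UMI of any of 4 companion genes, *Tnmd*, *Kera*, *Mkx* and *Thbs4*, in the E12.5, E13.5 and E14.5 libraries. A UMI (unique molecular identifier) marks 1 captured transcript. Cells with at least 3000 UMIs, of which at most 10% were mitochondrial, were considered. By this rule 827 of 4714 cells at E12.5 (17.5%, 95% interval 16.5 to 18.7%), 970 of 6123 at E13.5 (15.8%, 14.9 to 16.8%) and 1406 of 8381 at E14.5 (16.8%, 16 to 17.6%) were members, which makes 3203 of the 19218 cells of these libraries and of the 53085 cells of all 8 libraries of the series. Every other cell of the same library served as the comparison.

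The study followed limb mesenchymal cells that descend from *Hic1*-expressing cells of the embryo with single-cell RNA-seq (10x Genomics, 3′ libraries). The paper places the origin of these cells in the somites, from which they migrate into the limb. All 3 libraries were made from C57BL/6J forelimbs of the genotype *Hic1*CreERT2/CreERT2;*Rosa26*LSLtdTomato/tdTomato, whose dams had been given 7.5 mg of tamoxifen by gavage at embryonic day 10. Cre recombinase was therefore driven from the *Hic1* locus, both copies of which carry the insertion in every sample, and the sorted cells are those in which the tdTomato reporter had been switched on. According to the study's methods, forelimbs of several embryos were pooled, cells bearing blood or endothelial surface proteins were excluded, tissue was digested with Dispase at E12.5 but with Collagenase A and Pronase from E13.5, and the reagent kit was v2 up to E13.5 and v3 at E14.5. Each stage is 1 library and members were chosen on the UMIs of the same cells, so that no test between stages or between members and other cells was made, and stage cannot be told apart from digestion, kit or depth. Intervals are exact 95% intervals (Poisson for sums of UMIs, Clopper-Pearson for shares) and cover counting error only.

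Tendons join muscle to bone and are built mainly from type I collagen fibrils, whose assembly is guided by small leucine-rich proteoglycans and other matrix proteins. *Scx* encodes Scleraxis, a bHLH transcription factor that marks tendon progenitors from the early limb bud onwards, and *Mkx* encodes Mohawk, a homeodomain factor required for normal tendon matrix. *Tnmd* (tenomodulin, a membrane glycoprotein) is a marker of tendon differentiation, *Kera* (keratocan) is a small leucine-rich proteoglycan, and *Thbs4* (thrombospondin 4) is a matrix glycoprotein of tendon and muscle attachments. Cells that carry both *Scx* and *Sox9*, the master regulator of cartilage, form the attachment of tendon to the skeletal primordia.

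In the GRCm38 annotation *Scx* lies at chr15:76457452-76459458 on the plus strand and overlaps *Bop1* on the minus strand, *Tnmd* at chrX:133850980-133865577 (plus), *Kera* at chr10:97606879-97613692 (plus) and *Thbs4* at chr13:92751590-92794818 (minus). The 2 genes outside the rule on which the later comparisons turn most are *Htra3*, a secreted serine protease (chr5:35652023-35679782, minus), and *Fmod*, fibromodulin, a proteoglycan that regulates collagen fibril growth (chr1:134037254-134048277, plus). Promoters of 3 of these genes, *Tnmd*, *Htra3* and *Fmod*, are shown because the comparisons at E14.5 turn on these genes, and because bHLH proteins such as Scleraxis recognise E-boxes (CANNTG, a motif that reads as itself on both strands), which are in capitals. Each runs 5′ to 3′ on the strand of the gene from 250 bases before to 50 bases after the RefSeq start (GRCm38.p6), at chrX:133850758-133851057, chr5:35679731-35680030 (minus strand) and chr1:134037004-134037303.
Tnmd: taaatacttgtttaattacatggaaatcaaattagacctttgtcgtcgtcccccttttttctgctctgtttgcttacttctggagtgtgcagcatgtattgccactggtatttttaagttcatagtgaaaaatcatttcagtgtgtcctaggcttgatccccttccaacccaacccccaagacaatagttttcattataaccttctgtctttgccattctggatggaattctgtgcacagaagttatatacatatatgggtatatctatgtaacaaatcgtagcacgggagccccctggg
Htra3: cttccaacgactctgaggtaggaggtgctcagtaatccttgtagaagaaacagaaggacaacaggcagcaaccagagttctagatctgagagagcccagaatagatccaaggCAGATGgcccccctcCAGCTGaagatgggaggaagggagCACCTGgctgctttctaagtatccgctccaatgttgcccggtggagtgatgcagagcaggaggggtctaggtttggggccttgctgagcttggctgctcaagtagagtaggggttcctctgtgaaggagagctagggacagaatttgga
Fmod: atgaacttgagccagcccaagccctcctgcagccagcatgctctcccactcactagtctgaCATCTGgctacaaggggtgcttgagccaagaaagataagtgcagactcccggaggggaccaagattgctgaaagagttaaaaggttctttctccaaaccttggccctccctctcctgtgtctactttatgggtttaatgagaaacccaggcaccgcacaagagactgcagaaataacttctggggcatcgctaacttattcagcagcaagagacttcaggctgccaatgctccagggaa
The *Htra3* window holds 3 E-boxes, that of *Fmod* holds 1 and that of *Tnmd* holds 0. Of 32851 RefSeq promoters of the same length 72.3% hold at least 1, so a match is common and is given only as a description of these letters.

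The libraries held 44640777 (E12.5), 46648357 (E13.5) and 135534751 (E14.5) UMIs. Members were deeper than other cells in each, with median totals of 9772 against 8481 UMIs, 8390.5 against 6540 and 17625.5 against 13928. Shares of cells with a UMI of a gene are therefore also given after thinning every cell to 3000 UMIs. The minimum of 3000 UMIs had already left out 272, 771 and 700 shallower barcodes from all values, thinned or not. The E12.5 and E13.5 libraries shared 37 cell barcodes, of which 3 were members in both, and the other pairs shared 2 and 1. Markers of lineages outside the mesenchyme were low in members. The summed level of 9 myogenic genes was between 8.19 and 14.9 CPM (counts per gene, scaled to the same total for every sum of cells), that of 6 immune genes between 4.57 and 7.53, that of 5 endothelial genes between 12.4 and 16.3 and that of 5 glial genes between 3.23 and 6.39. All 7 erythroid genes were at 0 in members at E12.5 and E13.5. In other cells the same lists lay between 13.5 and 26.2 CPM (myogenic), 4.89 and 9.04 (immune), 13.5 and 20.5 (endothelial) and were at most 8.14 (glial). Other lists had larger sums in both kinds of cells. Members had 852, 1500 and 1320 CPM for the 14 cartilage genes measured, against 773, 2070 and 1320 in other cells. The 8 pericyte genes summed to 120, 85.1 and 88.6 CPM in members and 118, 95 and 159 in other cells. The 8 dermal fibroblast genes (119, 137 and 105 against 163, 199 and 332) and the 6 epithelial genes (40.6, 39.8 and 49.1 against 56.2, 42.6 and 77.8) had lower sums in members at each stage. The 8 perichondrial and osteogenic genes summed to 32.8, 76 and 83.1 CPM in members and 45.4, 69.2 and 48.7 in other cells, and were thus higher in members at E14.5. *Dkk3*, which the paper uses as a perichondrium marker, was at 36.5 against 13.5 CPM at that stage.

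The rule was met more narrowly at the early stages. Among members 304 (36.8%) at E12.5, 337 (34.7%) at E13.5 and 298 (21.2%) at E14.5 had exactly 2 *Scx* UMIs, and the median was 3, 3 and 5. Just outside the rule were 440, 614 and 526 cells with 1 *Scx* UMI and a companion, and 1052, 595 and 545 cells with at least 2 *Scx* UMIs and no companion UMI. Cells with at least 2 *Scx* UMIs were themselves 39.9% of the library at E12.5, 25.6% at E13.5 and 23.3% at E14.5, so that members were 44.0, 62.0 and 72.1% of the *Scx* cells of their library. These shares were taken at full depth, which differed between the libraries. The share of members was similar between stages only under some settings, being 3.54, 5.99 and 10.5% with 2 companions asked for and 2.95, 4.28 and 4.25% with the rule applied at 3000 UMIs.

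The companions that made a cell a member shifted with stage. At E12.5, 660 of 827 members (79.8%) carried a single companion and 433 (52.4%) carried *Mkx* alone. At E13.5, 367 of 970 (37.8%) carried 2 or more, and at E14.5 this was 881 of 1406 (62.7%). Members with all 4 companions numbered 1, 28 and 231. These counts are at full depth, which was highest at E14.5.

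At equal depth *Tnmd* was the companion that differed most between stages. It was detected in 2.66% of members at E12.5 (1.67 to 4%), 8.97% at E13.5 (7.25 to 10.9%) and 50.9% at E14.5 (48.3 to 53.6%), against 0.566, 1.44 and 5.06% of other cells. *Thbs4* followed the same order with 7.26, 17.2 and 29.7% of members, none of whose intervals overlapped. *Mkx* was found in 32.8, 39.0 and 19.7% of members and was thus lowest at E14.5, and *Kera* in 18.4, 22.0 and 19.3%, with overlapping intervals. Without thinning the *Tnmd* shares were 7.01, 16 and 68.7%. These genes define the members, so the values describe them and test nothing.

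Whether companions occur in the same cells was asked among all cells with at least 2 *Scx* UMIs, members or not, at 3000 UMIs. Here a ratio of 1 means that 2 genes were found together as often as the product of their shares gives. At E14.5 all 6 pairs were above 1, from 1.5 (*Mkx* with *Thbs4*) to 2.45 (*Kera* with *Thbs4*, 142 cells against 58.1), and *Tnmd* met *Kera* in 199 cells against 99.5. At E13.5 the 6 ratios lay between 1.24 and 2.16. At E12.5 the pair *Kera* and *Mkx* was at 1.09 (24 cells against 21.9), *Kera* and *Thbs4* at 3.09 (15 against 4.85) and *Mkx* and *Thbs4* at 1.5 (13 against 8.65). Pairs with *Tnmd* rest on 1 to 3 cells at this stage. The *Kera* and *Mkx* ratio was 1.24 at E13.5 and 1.82 at E14.5.

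**Figure D1:**
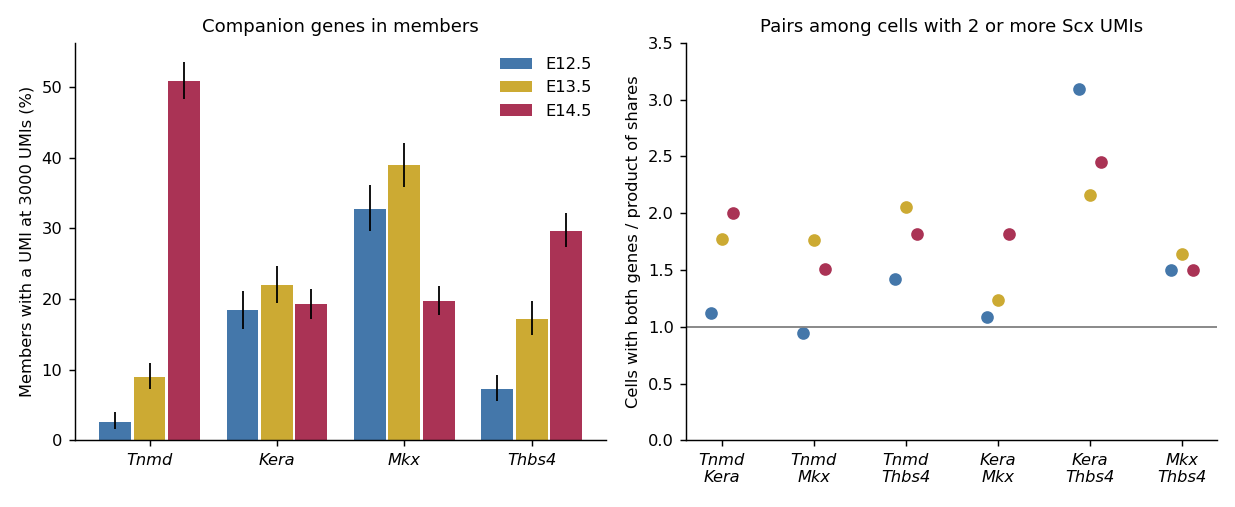
Companion genes of the rule. Left, percentage of members with a UMI of each companion gene after thinning to 3000 UMIs, by library, with exact 95% intervals that cover counting error only; right, number of cells with both genes of a pair divided by the product of the shares, among cells with 2 or more *Scx* UMIs (grey line, 1). *Tnmd* stands at 2.66, 8.97 and 50.9% of members from E12.5 to E14.5 while *Kera* stays between 18.4 and 22.0%, and all 6 pairs lie above 1 at E13.5 and E14.5.

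In summed UMIs the 5 rule genes behaved differently in members and in other cells. In members *Scx* had 351, 458 and 441 CPM from the earliest to the latest library, and in other cells 140, 88.7 and 31.7 CPM. *Tnmd* was 10.0, 50.1 and 882 CPM in members and 1.76, 6.66 and 45.8 CPM in other cells. The log2 ratio of members over other cells (on CPM + 1) for *Scx*, 1.32, 2.36 and 3.76, widened mainly as the level in other cells became lower. For *Tnmd*, 2.00, 2.74 and 4.24, the level became higher in both. The rule enters the *Scx* level of other cells, which include cells with at least 2 *Scx* UMIs and no companion. These were 1052 of 3887 other cells at E12.5, 595 of 5153 at E13.5 and 545 of 6975 at E14.5. They held 3831, 1969 and 2365 *Scx* UMIs. The remaining other cells with *Scx* were 1112, 1280 and 1019 cells with 1 UMI each. Most *Scx* UMIs of other cells thus lay in cells that the companion part of the rule left out. Their part in the widening of the ratio was not tested. *Thbs4* was 31.8, 100 and 260 CPM in members, *Kera* 186, 256 and 213, and *Mkx* 111, 162 and 73.4.

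Outside the rule members were little set apart at E12.5, more at E13.5 and most at E14.5. A difference of 2-fold or more on CPM + 1 was counted for every gene that reached 25 CPM in members or in other cells. At E12.5, 4 of 5923 genes were higher in members (0.0675%) and 4 were lower (0.0675%). At E13.5, 21 of 5817 were higher (0.361%) and 12 lower (0.206%), and at E14.5, 61 of 5434 were higher (1.12%) and 74 lower (1.36%). Rule genes made up 4 of the higher genes in each library, which leaves 0, 17 and 57 genes. The median log2 ratio over all genes counted was -0.01, -0.00 and -0.02. Both counts were in this order in each of 14 alternative settings, but the depth of the libraries and the makeup of the other cells differ between stages and their part in it was not tested.

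At E12.5 the name tendon progenitor therefore rests on the genes of the rule. Genes higher in members but not counted, for their ratio or their level, included *Lurap1l* (log2 ratio 1.08, under the minimum level), *Htra1*, a secreted serine protease (15.4 against 7.32 CPM, 0.98, under the minimum), *Alx1* (41.3 against 22.8 CPM, 0.83), *Tnc*, tenascin C, a matrix glycoprotein of developing tendon (110 against 66.9 CPM, 0.71), *Col25a1* (81.3 against 51.1, 0.66) and *Inhba*, a subunit of activin A (28.4 against 18.2, 0.62). A stricter choice gave more. With at least 2 companions asked for (3.54% of E12.5 cells), 24 of 6043 genes were higher (0.397%), of which 5 are rule genes and 19 are not, and the latter included *Tnc* (176 against 71.2 CPM), the homeobox genes *Alx1* (87.4 against 23.9) and *Emx2* (84.2 against 38.7), the proteoglycan genes *Epyc* (26.4 against 8.50), *Dcn* (491 against 238) and *Fmod* (43.2 against 20.9), and *Grem1*, a BMP antagonist (73.9 against 29.5). With the rule applied to cells thinned to 3000 UMIs, which selects the cells richest in *Scx* per UMI (2.95%), 21 of 6073 genes were higher (0.346%), 17 of them outside the rule, among them *Bmp2* (105 against 41.4 CPM), *Sox8* (31.2 against 10.7), *Fgf8* (36 against 15.7) and *Eya2* (40.8 against 18.6).

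At E12.5 the 4 lower genes were *Aldh1a2*, which makes retinoic acid (21.4 against 63.6 CPM, log2 ratio -1.53), *Gdf5*, a BMP-family ligand of the joint interzone (8.93 against 25.9, -1.44), *Sat1* (15.4 against 36.4, -1.19) and *Zeb2*, a zinc-finger repressor (12 against 25.9, -1.04). The low *Gdf5* was not particular to members, as cells with *Scx* but no companion had 11.7 CPM. *Zeb2* was the only gene lower in all 3 libraries (1 of 4893 genes at the minimum level in each, 0.0204%), at 10.1 against 27.7 CPM at E13.5 and 18.6 against 77.5 at E14.5. This call did not hold in every setting. At E12.5 the ratio was -0.95 with *Scx* at 1 UMI or more, -0.91 with the rule on thinned cells and -0.86 with a pseudocount of 5 CPM, and with 2 companions asked for *Zeb2* was under the minimum level in 1 library or more. Against cells with *Scx* and no companion the ratios were -0.16, -0.67 and -0.41. Those higher in all 3 were *Scx*, *Mkx* and *Thbs4* (3 of 4893, 0.0613%), all rule genes. Without the E12.5 library 15 genes were higher in both remaining libraries, of which 11 are outside the rule (11 of 17 at E13.5 and of 57 at E14.5).

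These 11 were *Htra3*, the collagen genes *Col13a1* and *Col25a1*, *Prss35* (a serine protease-like protein), *Inhba*, *Pdgfc* (a PDGF ligand), *Meox1* (a homeobox factor of the somite), *Ddah1*, *Ssc5d*, *Lurap1l* and *Zfp185*. *Htra3* was 12.6 CPM in members (10.4 to 15.2) and 10.0 in other cells at E12.5, 55.1 (50.3 to 60.2) and 19.8 at E13.5, and 217 (211 to 222) and 25.5 at E14.5. The level in members was higher at each stage and moved further than that in other cells, and the log2 ratio was 0.31, 1.43 and 3.04. *Prss35* ran from 25.5 over 70.0 to 164 CPM in members and from 17.6 over 29.6 to 43.2 in other cells. *Pdgfc*, at 24.5 and 25.3 CPM in members and other cells at E12.5, was at 66.7 and 29.1 at E13.5 and 47.3 and 16.5 at E14.5.

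A few genes were higher at 1 stage alone or in a minority of members. *Cldn5*, a tight-junction protein of endothelium, was at 42.1 against 8.25 CPM at E13.5, with UMIs in 136 members, but at 6.25 against 3.66 CPM at E12.5 and 1.47 against 1.36 at E14.5. Over all E13.5 members the endothelial list summed to 12.4 CPM, against 13.5 in other cells. Its level in the members with *Cldn5* UMIs was not measured, and its part in this difference was not tested. *C1qtnf3*, a secreted C1q-family protein, stood at 132 against 15.7 CPM at E14.5, but with UMIs in 381 of 1406 members and up to 98 in a single cell. *Spon2*, a matrix protein, was at 38.8 against 4.83 CPM and was found in 288 members.

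Of the tendon matrix list, 31 genes with 3 of the rule among them, 20, 23 and 25 others were at the minimum level. None was 2-fold higher at E12.5, *Htra3* was at E13.5, and 7 were at E14.5, with medians of the log2 ratio of 0.24, 0.27 and 0.69. Of all genes 0.0675, 0.361 and 1.12% were higher, so that 0 of 20 at E12.5 is near this background. The paper uses *Htra3* to mark its tenocyte cluster, which was drawn from libraries that include these. The *Htra3* call is therefore not independent of the paper's own reading of these cells. The 7 at E14.5 included *Fmod* (144 against 22.1 CPM, 2.65), *Thbs2* (107 against 38.2, 1.46), *Col11a1*, a fibril-nucleating collagen (502 against 197, 1.35), *Tnc* (124 against 52.8, 1.21), the proteoglycan *Aspn* (314 against 137, 1.19) and the fibril-associated *Col12a1* (243 against 118, 1.04). The E14.5 level of *Tnc* was not particular to members, as cells with *Scx* but no companion had 109 CPM. Those cells had 46.1 CPM of *Fmod*, well below members. *Col1a1*, the main collagen of tendon, stood just under 2-fold at 4610 against 2300 CPM, after 729 against 517 at E12.5 and 986 against 643 at E13.5. Matrix genes did not all go this way. *Lum* (lumican) was lower in members at E14.5, 213 against 665 CPM (log2 ratio -1.64), after 348 against 326 at E12.5, *Col6a1* and *Col6a2* were at -0.72 and -0.73, and *Col3a1* at 1950 against 2160 CPM (-0.14). The low *Lum* at E14.5 was not particular to members, as cells with *Scx* but no companion had 144 CPM.

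*Fmod* shows how a ratio can widen from both sides. In members it was 27.4 CPM (24.1 to 31.1), then 95.5 CPM (89.1 to 102) and at the last stage 144 CPM (139 to 148), and in other cells 20.4, 52.5 and 22.1. At 3000 UMIs it was found in 7.62, 24.5 and 27.5% of members and in 5.58, 13.2 and 5.98% of other cells. *Htra3* was found in 3.51, 14.1 and 33.3% of members and 2.68, 5.26 and 6.08% of other cells.

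Among 7 tendon regulators outside the rule that were at the minimum level at E14.5, *Six2* (59.3 against 25 CPM, log2 ratio 1.21) and *Eya2* (50.3 against 16.8, 1.53), a homeobox factor and its co-activator, were 2-fold higher, against 1.12% of all genes. At E12.5 their ratios were 0.15 and 0.36. The E14.5 level of *Six2* was not particular to members, as cells with *Scx* but no companion had 59.7 CPM. *Egr1*, an immediate-early gene linked to tendon collagen expression, did not differ by 2-fold at any stage (-0.01, 0.12 and -0.51), and its level in members was 206, 45.5 and 22.0 CPM from E12.5 to E14.5. *Meox2* was at 235 against 116 CPM (1.02) at E14.5. *Klf2* and *Klf4* were lower or equal in members throughout (-0.33, -0.55 and -0.07 for *Klf2*, -0.12, -0.28 and -0.70 for *Klf4*).

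Few genes of the TGF-beta, FGF, BMP and hedgehog lists passed 2-fold. The lists are short and between 0.0675 and 1.36% of all genes passed in a direction, so that a count of 0 is near the background and says nothing about a pathway. TGF-beta ligands are required for tendon progenitors. No TGF-beta list gene of 9, 10 and 13 at the minimum level passed 2-fold, and *Tgfb2* was nearly level (196 against 189, 235 against 224 and 151 against 142 CPM). *Tgfb3* was at 64.0 against 40.6 CPM at E14.5 (0.65). Of the FGF list 1 of 7 was higher at E14.5, the FGF-response factor *Etv4*, whose ratio was 0.27, 0.62 and 1.26. Its level in members was nonetheless 41.7, 30.1 and 26.3 CPM, against 34.5, 19.2 and 10.4 in other cells. *Dusp6*, a feedback inhibitor of the pathway, was at 193, 83.1 and 10.7 CPM in members and at 173, 53.7 and 9.77 CPM in other cells.

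In the BMP list *Gdf5* was lower at E12.5 and E13.5 and *Id4* at E14.5 (13.1 against 32.6 CPM, -1.26), as 1 of 14, 14 and 13 genes. *Bmp2*, a ligand that acts at tendon attachments, was among the genes most evenly higher at all stages (59.4 against 39.1, 74.4 against 49.0 and 40.9 against 27.6 CPM), at ratios of 0.59, 0.59 and 0.55. *Id1*, *Id2* and *Id3*, targets of BMP signalling, were level at E12.5 (-0.06, -0.00 and 0.01) and lower in members at E14.5 (-0.76, -0.61 and -0.52). None of 3 hedgehog genes passed 2-fold, nor did any of 6, 5 and 6 mechanosensing genes, whose median ratio was 0.08, 0.01 and 0.41, counts that are again near the background. *Piezo2*, a mechanically gated channel, was at 119 against 75 CPM at E14.5. Of the adhesion list *Fn1* (fibronectin) was higher at E14.5, at 463 against 213 CPM (1.12).

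**Figure D2:**
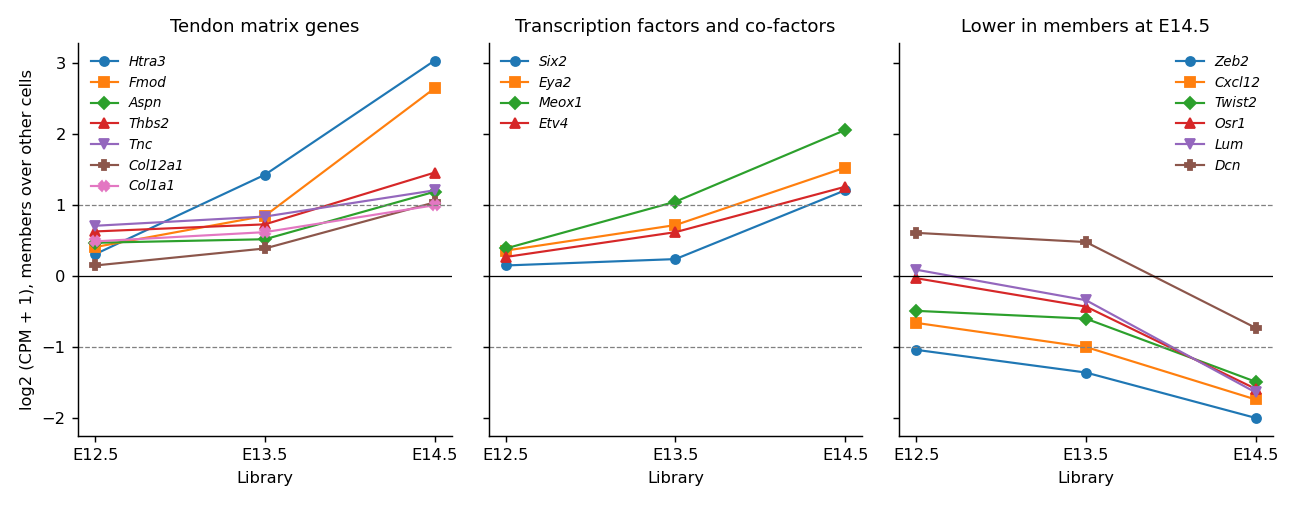
Members against other cells of the same library. Lines join the log2 ratio of CPM + 1 at E12.5, E13.5 and E14.5 for tendon matrix genes, transcription factors with co-factors, and genes lower in members at E14.5; dashed lines mark 2-fold. *Htra3* runs from 0.31 to 3.04 and *Zeb2* from -1.04 to -2, while *Six2* and *Eya2* pass 2-fold at E14.5 alone.

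The genes lower in members at E14.5, 1.36% of all genes, included markers of other connective tissues. All 4 dermal fibroblast genes at the minimum level were lower, *Rspo1* (3.71 against 38.3 CPM), *Irx1* (12.6 against 84.6), *Axin2* (14.1 against 34) and *Twist2* (38.3 against 110), with a median log2 ratio of -2.07, and so were 3 of 4 fibroblast genes, *Mfap5* (9.07 against 46.0), *Cd34* (9.69 against 33.8) and *Fap* (10.1 against 26.4). Of 8 muscle connective tissue genes *Osr1* (41.3 against 126 CPM) and *Osr2* (20.5 against 56.4) were lower, having been at -0.03 and -0.37 at E12.5. Cells with *Scx* but no companion had 58.9 CPM of *Osr1* at E14.5. *Acta2*, smooth muscle actin, was at 4.30 against 34.8 CPM. *Krtdap*, an epidermal gene, was at 0.514 against 42.8 CPM, and its 4570 UMIs in other cells came from 89 cells, whereas no member held more than 1 UMI. The makeup of the other cells enters every E14.5 ratio, and its part in them was not tested.

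*Cxcl12*, a chemokine of mesenchymal cells, was lower in members at each stage (90.7 against 144, 69.7 against 140 and 66.8 against 225 CPM). *Ebf1* and *Ebf2*, transcription factors of mesenchymal lineages, were lower by similar ratios at each stage (-0.76, -0.97 and -0.70, and -0.72, -0.71 and -0.56). Position genes had median log2 ratios of -0.11 at E12.5 and -0.05 at E13.5. None of 10 passed 2-fold at these stages, which is near the share of all genes (at most 0.361% in a direction). At E14.5 *Meis2*, a proximal factor, and *Hoxd13*, a distal one, were both lower (13.6 against 28.3 and 31.4 against 65.0 CPM). They were 2 of 10 genes, against 1.36% of all genes. *Hic1*, the gene of the lineage label, stood at log2 ratios of 0.11, -0.28 and -0.58, and tdTomato at 0.10, 0.11 and -0.13.

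Within a library several of these genes followed the number of *Scx* UMIs per cell, over all filtered cells sorted into those with 0, 1, 2, 3 to 4, 5 to 9 and 10 or more. At E14.5 *Htra3* stood at 21.3 CPM in cells with no *Scx* UMI and at 40.1, 85.2, 122, 184 and 289 CPM in the next bands. *Fmod* went from 15.4 to 184 CPM and *Col1a1* from 2290 to 5000, and *Zeb2* from 88.2 down to 9.28 and *Cxcl12* from 258 down to 43.0. At E12.5 *Htra3* went from 6.02 to 34.4 CPM, whereas *Fmod* (17.0 to 30.6) and *Col1a1* (504 to 606) stayed within a narrow range and had their highest values in inner bands. *Zeb2* at E12.5 was 39.5 CPM with no *Scx* UMI, 19.0 with 1 and between 12 and 13.5 beyond.

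*Etv4* went with *Scx* at every stage, with 27.8 CPM in the lowest band and 66.6 in the highest at E12.5, then 16.2 and 59.4 at E13.5, and 9.29 and 41.6 at E14.5. *Gdf5* went the other way at E12.5, from 38.9 to 2.22 CPM. *Sox9* followed neither order at E14.5, with 96.2, 197, 207, 173, 177 and 94.7 CPM, and was highest in the bands of 1 and 2 UMIs. The bands also differ in depth, with medians between 13567 and 23785 UMIs at E14.5, and the part of depth in these orders was not tested. *Scx* UMIs are part of the rule and most of these genes were named for their difference between members and other cells, so the bands describe that contrast in finer steps and are no separate evidence.

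**Figure D3:**
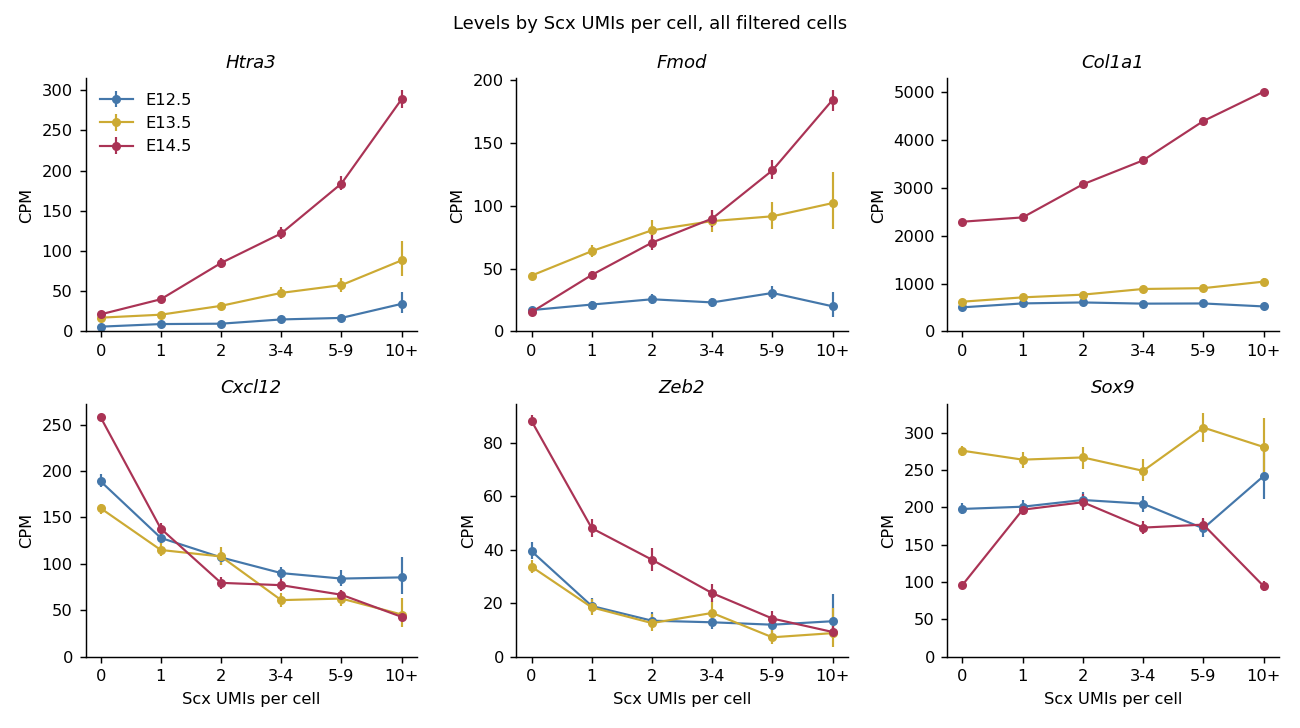
Levels in CPM of 6 genes by the number of *Scx* UMIs per cell, over all filtered cells of each library, with exact Poisson 95% intervals that cover counting error only. At E14.5 *Htra3* climbs from 21.3 to 289 CPM and *Zeb2* descends from 88.2 to 9.28 CPM, while *Sox9* is highest in the bands of 1 and 2 UMIs.

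Members were not uniform, and their companions went with different neighbours in expression. Members that carried *Mkx* alone (433, 394 and 196 cells) had higher levels of cartilage genes than members as a whole. At E12.5 *Sox9* was at 308 CPM in them against 234 in all members, *Sox6* at 63.2 against 42.5 and *Matn4*, a cartilage matrix protein, at 134 against 88.9. At E14.5 *Sox9* was at 279 against 130 CPM, *Matn1* at 106 against 29.7 and *Mia* at 194 against 58.7. This was not particular to them at E14.5, where *Kera*-alone members had 192, 85.1 and 122 CPM of these genes and cells with *Scx* but no companion 263, 103 and 157 CPM.

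Members with *Kera* alone (137, 121 and 43 cells) were higher in some genes and lower in others. At E12.5 they had *Lum* at 758 CPM against 348 in all members, *Dcn* at 505 against 343, *Dkk2*, a Wnt antagonist, at 145 against 62.5, *Emx2* at 111 against 56.2 and *Osr1* at 178 against 96.7. At E13.5 the same genes stood at 561, 968, 115, 104 and 304 CPM against 295, 695, 71.0, 53.5 and 147. High *Dcn* was not particular to them, as members with 2 or more companions had 491 CPM at E12.5 and 998 at E13.5. In those members *Lum*, *Dkk2*, *Emx2* and *Osr1* were below their *Kera*-alone levels at both stages. The proteoglycan gene *Fmod* was lower in *Kera*-alone members than in all members at each stage (12.4 against 27.4, 36.4 against 95.5 and 41.9 against 144 CPM). Members with *Thbs4* alone (62, 63 and 81 cells) were higher in *Postn* at E12.5 (53.0 against 23.4 CPM) and E13.5 (151 against 92.8), but not at E14.5 (335 against 480). Members with 2 or more companions had 24.8 CPM of *Postn* at E12.5 but 135 at E13.5. The *Kera*-alone and *Thbs4*-alone subsets are small, and a companion missed by sampling puts a cell in the wrong subset.

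Members with 2 or more companions (167, 367 and 881 cells) had the highest *Htra3*, *Prss35* and *C1qtnf3* of the subsets that the heat map shows at E14.5. There *Htra3* was at 279 CPM against 217 in all members, *Prss35* at 204 against 164 and *C1qtnf3* at 170 against 132, and *Htra3* was between 40.7 and 122 CPM in members with 1 companion. *Tnc* was at 176 CPM in these cells at E12.5 and 181 at E13.5, against 110 and 126 in all members, but level at E14.5 (122 against 124). The same cells were the deepest at E14.5, with a median of 19977 UMIs against 13261 in *Mkx*-alone members. The 205 members with *Tnmd* alone at E14.5, left out of the heat map, had 122 CPM of *Htra3* and 77.8 CPM of *C1qtnf3*.

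**Figure D4:**
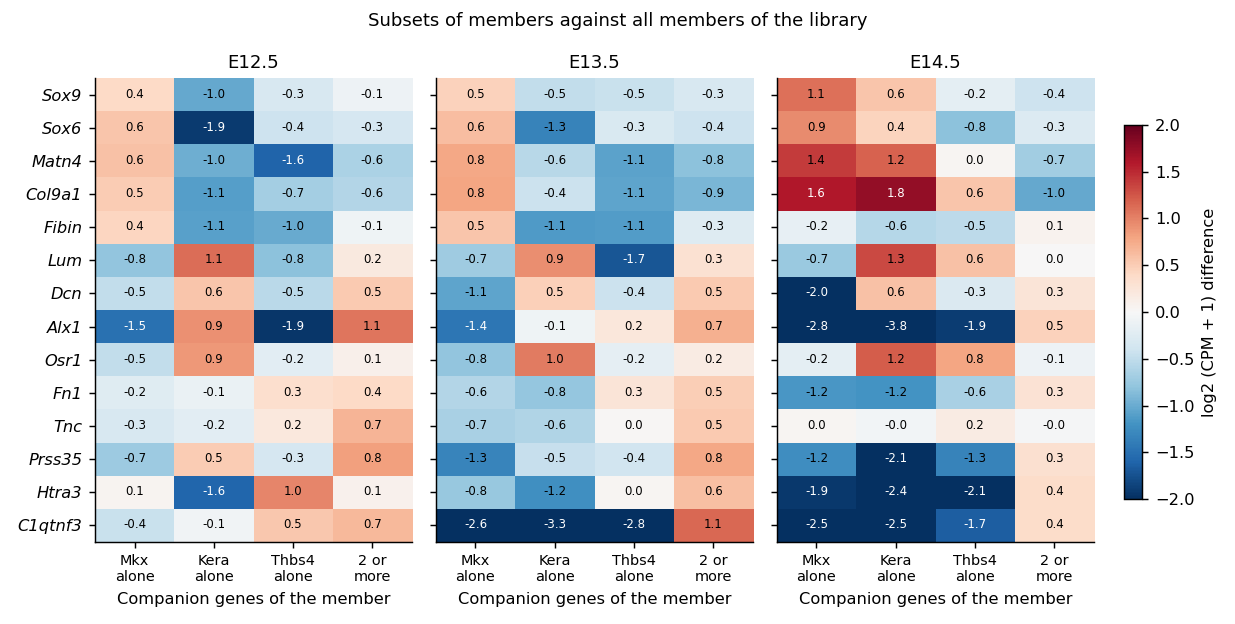
Subsets of members by their companion genes, for each library. Colours and printed values are the log2 difference of CPM + 1 between the subset (*Mkx* alone, *Kera* alone, *Thbs4* alone, 2 or more companions) and all members of that library. *Sox9*, *Sox6*, *Matn4* and *Col9a1* are above all members in the *Mkx*-alone column at each stage, and *Lum* in the *Kera*-alone column.

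Members with a *Sox9* UMI were compared with those without (483 and 344 at E12.5, 579 and 391 at E13.5, 774 and 632 at E14.5). At E12.5 the *Sox9* members were higher in the cartilage genes *Matn4* (143 against 13.2 CPM), *Sox6* (65.9 against 9.42) and *Col9a1* (84.6 against 14.3) and lower in *Kera* (115 against 286), *Alx1* (19.4 against 72.1) and *Tnmd* (5.15 against 17.0). *Kera* was lower in them at the later stages too (172 against 393 and 150 against 292 CPM), whereas *Tnmd* was nearly level (48.5 against 52.5 and 812 against 970). *Cytl1*, a chondrocyte cytokine, was at 58.0 against 0.662 CPM at E14.5. Against the other cells of the library, *Matn1* was the only gene of the cartilage list past 2-fold, being lower in members at E13.5 (9.81 against 44.9 CPM, 1 of 10 genes) and E14.5 (29.7 against 84.1, 1 of 8). Of all genes 0.206 and 1.36% were lower at these stages, so that the lack of further calls in a short list is near the background.

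At 3000 UMIs a *Sox9* UMI was found in 37.5% of members against 30.8% of other cells at E12.5, in 40.4 against 38.4% at E13.5 and in 24.8 against 19.8% at E14.5. The intervals overlapped at E13.5 alone. With the rule itself applied at 3000 UMIs the shares were 38.8 against 31.8%, 41.6 against 38.6% and 18.0 against 20.7%, so that the order at E14.5 turned and the intervals overlapped in every library. For *Col2a1*, the main cartilage collagen, the shares were 37.0 against 30.6%, 40.9 against 39.5% and 38.1 against 18.7%. Its summed level differed less at E14.5, with 217 against 185, 294 against 390 and 406 against 365 CPM over the 3 stages. The *Col2a1* shares were not taken with the rule applied at 3000 UMIs. As a background, a UMI of any of 6 immune genes was found in between 0.967 and 2.92% of the same groups of cells.

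Genes of the G2 and M phases were higher in members at every stage. All 12 listed genes at E12.5, 12 at E13.5 and 10 at E14.5 that were at the minimum level had ratios above 1, with median log2 ratios of 0.54, 0.77 and 0.30, although none was 2-fold higher. *Ube2c* (302 against 197, 277 against 150 and 206 against 145 CPM) and *Birc5* (249 against 176, 298 against 172 and 197 against 142), both needed for mitotic exit and division, and the histone gene *Hist1h2ap* were among the 15 genes most evenly higher over the 3 stages. UMIs of at least 3 of the 12 genes were found at 3000 UMIs in 33.1% of members against 21.4% of other cells at E12.5 (intervals 29.9 to 36.5 and 20.1 to 22.7%), 32.6 against 17.0% at E13.5 and 21.8 against 13% at E14.5. Members were the deeper cells before thinning. With the rule applied at 3000 UMIs the shares were 28.8 against 23.3% at E12.5, with overlapping intervals, 29.8 against 19.0% at E13.5 and 28.1 against 13.8% at E14.5.

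**Figure D5:**
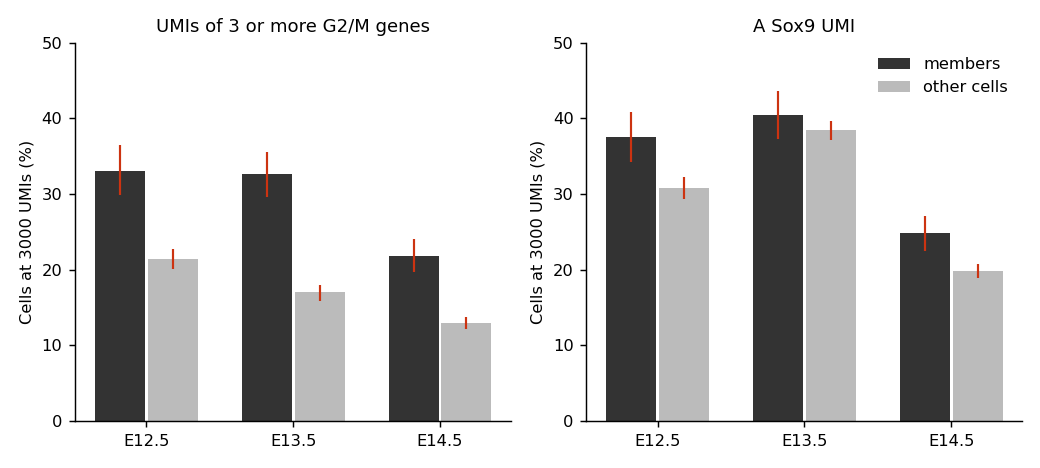
Percentage of members and of other cells, thinned to 3000 UMIs, with UMIs of at least 3 of 12 G2/M genes (left) and with a *Sox9* UMI (right), by library, with exact 95% intervals that cover counting error only. The G2/M shares of members are 33.1, 32.6 and 21.8% against 21.4, 17.0 and 13% of other cells, and the *Sox9* intervals overlap at E13.5.

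Between stages most differences among members were shared with the other cells. From E12.5 to E13.5, 82 of 6058 genes were 2-fold or more higher in members at the later stage (1.35%) and 115 were lower (1.9%). Of these, 49 (59.8%) and 93 (80.9%) also differed 2-fold in the same direction in other cells. *Mgp*, a matrix inhibitor of calcification, was at 28.7 and 143 CPM in members and 20.8 and 98.9 in other cells. *Id1* was at 1160 and 148 CPM in members and 1210 and 139 in other cells, and the transcription factor *Snai1* at 369 and 40.3 against 352 and 46.6. The summed level of 10 immediate-early and heat-shock genes was 1860, 1450 and 899 CPM in members from E12.5 to E14.5 and 1940, 1510 and 1190 in other cells. No gene of that list separated members from other cells by 2-fold, which is near the share of all genes (0.0675 to 1.36% in a direction). At E14.5 none of the 10 genes had a ratio above 1, and the median log2 ratio was -0.44. Digestion also differed between the E12.5 and E13.5 libraries and cannot be told apart from stage.

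From E13.5 to E14.5, 246 of 5940 genes were higher (4.14%) and 345 lower (5.81%), of which 191 (77.6%) and 216 (62.6%) went 2-fold the same way in other cells. The ribosomal protein gene *Rps12* was at 10.3 and 2460 CPM in members and at 7.62 and 2400 in other cells, and the pseudogene *Rpl23a-ps3* at 218 and 25.3 against 214 and 27.4. Such values went with the library in members and other cells alike, and the kit changed at this step. *Tnmd* (50.1 and 882 CPM) and *Col14a1*, a fibril-associated collagen (3.19 and 80.2 CPM in members, 8.49 and 80.5 in other cells), were among the 6 genes with the largest step.

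What set members apart across a step is the difference between their step and that of the other cells, both measured in the same libraries. From E12.5 to E13.5 the difference was largest, among genes at 50 CPM or more in members of either stage, for *Pdgfc* (1.21 on the log2 scale), *Htra3* (1.13) and the rule gene *Scx* (1.04). From E13.5 to E14.5 it was largest for *Pcolce2*, an enhancer of procollagen processing (9.69 and 55.9 CPM in members, 12.2 and 14.4 in other cells, 2.19), *Fmod* (1.80), *Epha5*, an ephrin receptor (27.5 and 83.9 against 47.6 and 45.3, 1.64), and *Htra3* (1.61). Next came the rule genes *Tnmd* (1.5) and *Scx* (458 and 441 against 88.7 and 31.7, 1.4), and *Col11a1* (235 and 502 against 228 and 197, 1.30). The rule itself enters the values of *Scx* and *Tnmd*. The companions that members carried also differed between stages, and their part in these steps was not tested. *Wif1*, a Wnt inhibitor, was at 82.7 and 182 against 45.4 and 48.2 CPM (1.05). In the other direction stood *Celf2* (-1.52), *Lum* (295 and 213 against 374 and 665 CPM, -1.30), *Fst*, follistatin (87.7 and 43.5 against 64.5 and 76.5, -1.24), *Dcn* (-1.22), *Osr1* (147 and 41.3 against 199 and 126, -1.15) and the Notch target *Hes1* (363 and 166 against 345 and 322, -1.02).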

How the data were processed

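The files deposited for each library give UMI counts, not normalized, for every gene in every cell barcode. According to the study's methods the authors aligned reads to a modified mm10 genome with Cell Ranger, which the file headers give as 3.0.2, and 3 of the 28001 listed features are added sequences. Each stage is 1 library and groups come from the labels. Cells with fewer than 3000 UMIs, the study's filter, or over 10% mitochondrial UMIs, a limit chosen here, were left out. The doublet caller Scrublet marked 1, 0 and 0 cells at its default threshold and thus did not work here, and no cell was removed. Leaving out the top 5% of its scores was an alternative.

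UMIs were summed over members and over the other cells, divided by the total (CPM), and compared on log2(CPM + 1), which understates the ratio of low genes. Ratios of 2-fold or more were counted among genes at 25 CPM or more on either side. No test was made. A rule chose 15 higher and 10 lower genes at 25 CPM or more by their weakest ratio over the 3 libraries, and 6 per step and direction at 50 CPM or more in the higher stage, without haemoglobin, mitochondrial, *Xist*, *Tsix*, Y-linked, Gm, Rik and added genes. Genes were also named from 26 lists, and the remaining names, from the counts of 2-fold genes, were chosen after their values were seen. The members, lists and rules were chosen with earlier results of these data known. Scripts (Python 3.11.15, numpy 2.4.6, scipy 1.17.1, pandas 2.3.3, scanpy 1.11.5) were tested on simulated data. Promoters came from RefSeq, coordinates from a GRCm38 annotation. Values of 1 listed gene are not reported here.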

Additional observations from a re-analysis of the deposited data

Results flagged for a closer look

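*Dcn* (decorin, a collagen-binding proteoglycan) stood on opposite sides in different libraries. Its log2 ratio of members over other cells was 0.61 at E12.5, 0.48 at E13.5 and -0.73 at E14.5. In members the level was 343, 695 and 575 CPM, and in other cells 225, 497 and 957 CPM. The homeobox gene *Emx2* had ratios of 0.60, 0.11 and -0.82. With 1 library per stage the difference between stages was not tested.

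The same rule was met by cells of libraries outside the 3 stages. The shares were 14.1% of 3165 sorted cells at E11.5 (446 cells), 11.7% of 11109 in the E16.5 proximal library (1300 cells) and 11.2% of 8447 in the E16.5 distal library (942 cells). In the whole limb libraries of E11.5, not sorted for tdTomato, they were 0.659 and 0.739%. Of the sorted libraries named here only that of E11.5 shares their stage. The E16.5 libraries were also deeper, with medians of 18473 (proximal) and 17275 UMIs (distal) against 8850.5 and 8593.5.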

How the results depend on the processing

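No paired analysis was possible because the results come from no test: members were chosen on the UMIs of the cells compared, and the 3 libraries are different stages, not replicates. Counts below are per library in the order E12.5, E13.5 and E14.5, and the cause of each shift was not tested unless it lies in how the alternative is built.

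The share of members became 26.9, 25.9 and 23.1% with *Scx* at 1 UMI or more, 11.1, 10.3 and 13.2% at 3 or more, 3.54, 5.99 and 10.5% with 2 companions, 2.95, 4.28 and 4.25% with the rule on cells thinned to 3000 UMIs, and 14.9 and 15.9% at E13.5 and E14.5 without the top doublet scores. Mitochondrial limits left it within its intervals.

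Genes higher and lower per library were 28 and 16, 127 and 47, and 153 and 189 at 1.5-fold. Without a floor they were 8 and 37, 44 and 76, and 134 and 312. With 2 companions the first 2 libraries had 24 and 10, and 46 and 27, and against other cells without *Scx* 7 and 13, and 38 and 25. Lower genes were 7, 25 and 138 at a floor of 10 CPM, 45 at E14.5 with *Scx* at 1 or more, 31 at E14.5 against *Scx* cells without companion (7 higher at E12.5), 6 at E13.5 with a pseudocount of 5, and 23 and 128 at E13.5 and E14.5 with the thinned rule (21 higher at E12.5). Higher genes at E13.5 were 33 with *Scx* at 3 or more and 32 with each cell weighted alike. In all 3 libraries the 3 higher genes became 8 (1.5-fold), 11 (2 companions), 5 (floor of 10), 6 (no floor) or 7 (thinned), and the 1 lower gene became 5 (1.5-fold, and also without a floor), 3 (other cells without *Scx*) or 0 (*Scx* at 1 or more, *Scx* cells without companion, pseudocount of 5). Leaving out a library gave 3 to 15 higher and 1 to 5 lower, the most (15 and 5) without E12.5, and 2 lower without E14.5. At a floor of 10 CPM, 151 genes were higher from E12.5 to E13.5 and 592 lower from E13.5 to E14.5.

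Not thinned, *Sox9* shares were 58.4, 59.7 and 55.0% of members and 47.0, 51.7 and 42.7% of other cells, and G2/M shares 43.4, 41.6 and 39.3% and 30.6, 22.9 and 24.1%. With *Scx* at 3 or more, E13.5 members were at 43.8% (*Sox9*) and 36.8% (G2/M). Without top doublet scores G2/M shares of other cells were 15.8% at E13.5 and 12.2% at E14.5. With the rule at 3000 UMIs *Sox9* was at 18.0% of E14.5 members, and G2/M at 28.8 against 23.3%, 19.0% of E13.5 other cells, and 28.1 against 13.8% at E14.5.

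Of 153 ratios of 51 named genes, 23 moved with *Scx* at 3 or more, 85 with the thinned rule and 21 without top doublet scores. Of the 83 past 1.5-fold, 0, 1 and 0 had the other sign. Leaving out cells with 3 or more G2/M genes, and the rule at 3000 UMIs for *Sox9* and G2/M shares, were chosen after seeing the data, and the former kept every count within 1.5 times.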

Other observations

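In the E11.5 sorted library *Htra3* and *Fmod* were no higher in cells meeting the rule than in other cells. *Htra3* was at 3.59 CPM in cells meeting the rule and 4.74 in other cells, *Fmod* at 7.18 and 8.02, and *Tnmd* was found in 21 of the 446 cells meeting the rule. At E16.5 *Tnmd* was found in 1190 of 1300 proximal and 665 of 942 distal cells, at 2370 and 1410 CPM, and *Scx* in other cells was at 5.16 and 8.35 CPM. *Htra3* was at 206 and 216 CPM in these cells, near its level of 217 CPM at E14.5, *Fmod* was at 325 and 272 CPM and *C1qtnf3* at 565 and 305 CPM. *Tnc* was at 92.6 CPM in proximal and 171 CPM in distal cells. *Zeb2* was lower in cells meeting the rule in the sorted libraries of E11.5 and E16.5 too, at log2 ratios of -0.64, -1.76 (proximal) and -2.17 (distal). In the 2 whole limb libraries of E11.5, with 36 and 42 such cells, its ratios were -2.01 and 0.39. Each sorted group is 1 library, so segment and stage cannot be told apart from library.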
